A study of Mus musculus with 12 samples.

Results

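Glutamate receptors and the proteins that accompany them were followed in hippocampus and olfactory bulb of mice with and without RasGRF2. The gene list holds 37 symbols: the subunits of AMPA, NMDA, kainate and delta receptors, the metabotropic receptors, the auxiliary subunits of AMPA receptors and the scaffold proteins of the Dlg family. Each gene was read at the probe set that carries its symbol alone, taking the probe set of highest mean where there were several. This gave 36 genes out of 19938 with a single symbol on the array. Grin1, the obligatory NMDA receptor subunit, was matched to no annotated probe set and was not analysed here.

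Hippocampus and olfactory bulb were taken from 6 adult C57BL/6 mice, 3 wild type (WT) and 3 labelled GRF2 KO, and total RNA of each sample was hybridised to an array of its own, giving 4 groups of 3. No treatment was given, and the animals of both genotypes lived in a conventional facility where they met common pathogens. The sources used here do not give how the knockout allele was made, which exons it removes, or the sex and litter of the animals. All groups are whole tissue, so a gene read here may come from any cell type, and fewer cells of a type cannot be told apart from less RNA per cell.

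Fast excitatory transmission runs through ionotropic receptors, which are tetramers of subunits that together form a cation channel. AMPA receptors carry most of the fast current, NMDA receptors admit calcium when glutamate binds to a depolarised membrane, and kainate receptors act on both sides of the synapse. Metabotropic receptors signal through G proteins, group I mostly by releasing calcium from stores and groups II and III by lowering cyclic AMP and restraining transmitter release. TARP proteins (the Cacng genes listed here), cornichons and Shisa9 bind AMPA receptors and set their trafficking and gating, while Dlg scaffolds anchor receptors in the postsynaptic density. RasGRF2 is a calcium- and calmodulin-responsive exchange factor that loads Ras with GTP, and it is known to link NMDA receptors to ERK signalling in hippocampal plasticity.

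The promoters of 4 members are shown because each pair holds genes of 1 family that differed between the tissues in opposite directions, as described below. Grik3 and Grik4 are kainate receptor subunits of the low- and high-affinity class, and Cacng7 and Cacng8 are TARP genes that lie side by side on chromosome 7, with 0 protein-coding genes between them. The sequences are those of RefSeq, build GRCm38.p6, and run 300 bases 5′ to 3′ from before the annotated start of the gene into its first bases. Capitals mark the GC box GGGCGG, the motif of Sp-family factors, on either strand (CCGCCC on the other).
Grik3, chr4:125490446-125490745, plus strand: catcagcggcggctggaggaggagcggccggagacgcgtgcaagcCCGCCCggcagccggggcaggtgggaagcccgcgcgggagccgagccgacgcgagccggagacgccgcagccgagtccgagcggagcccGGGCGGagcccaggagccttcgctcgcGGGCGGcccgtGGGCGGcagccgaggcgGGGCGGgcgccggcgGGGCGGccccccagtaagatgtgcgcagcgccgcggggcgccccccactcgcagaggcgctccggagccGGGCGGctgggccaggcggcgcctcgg
Grik4, chr9:42944322-42944621, minus strand: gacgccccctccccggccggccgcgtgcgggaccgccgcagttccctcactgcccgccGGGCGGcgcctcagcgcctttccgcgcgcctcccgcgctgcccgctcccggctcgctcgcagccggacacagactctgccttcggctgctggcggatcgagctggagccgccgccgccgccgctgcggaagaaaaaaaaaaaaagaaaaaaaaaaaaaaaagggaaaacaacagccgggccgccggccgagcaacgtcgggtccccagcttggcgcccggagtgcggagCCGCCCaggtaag
Cacng7, chr7:3332575-3332874, plus strand: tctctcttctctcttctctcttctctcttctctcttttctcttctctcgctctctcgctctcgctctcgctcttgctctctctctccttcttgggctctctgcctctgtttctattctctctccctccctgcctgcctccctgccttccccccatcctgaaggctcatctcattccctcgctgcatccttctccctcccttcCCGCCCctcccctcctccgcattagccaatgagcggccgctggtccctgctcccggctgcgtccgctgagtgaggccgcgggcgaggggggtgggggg
Cacng8, chr7:3393792-3394091, plus strand: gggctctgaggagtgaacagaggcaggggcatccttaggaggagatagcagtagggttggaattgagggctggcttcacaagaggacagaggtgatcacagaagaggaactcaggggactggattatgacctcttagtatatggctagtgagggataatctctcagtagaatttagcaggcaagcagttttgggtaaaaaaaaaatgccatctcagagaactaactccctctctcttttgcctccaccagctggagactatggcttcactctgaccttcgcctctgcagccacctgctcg

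The GC box occurs 7 times in the Grik3 promoter, 2 times in that of Grik4, 1 time in that of Cacng7 and 0 times in that of Cacng8, with overlapping matches counted. Of all 32851 promoters of the same length, 35.7% hold it. The 25 measured members in the table have 37 promoters, of which 17, or 45.9%, hold it. Guanine and cytosine make up 82% of the bases of the Grik3 promoter, 70% of those of Grik4, 62% of those of Cacng7 and 50% of those of Cacng8. CG dinucleotides number 50, 42, 15 and 2 in the same order. The full cAMP response element TGACGTCA, searched on both strands, was in 0 of these 37 promoters and in 1.79% of all promoters. These matches describe the letters of the windows and were set against no binding data.

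The deposited unit is log2 intensity from robust multi-array averaging (RMA), so a difference of 1 is a 2-fold change, and each value belongs to its own probe set. Array medians ran from 6.82 to 6.89 in hippocampus and from 6.93 to 6.96 in bulb. The main neuron classes followed the tissue labels, with exceptions in other lists. All 8 measured markers of CA pyramidal neurons were higher in wild-type hippocampus than in bulb, and all 12 markers of bulb interneurons and all 7 of mitral and tufted cells were higher in bulb. Of 9 dentate granule markers 6 were higher in hippocampus and 3 in bulb, and of 8 markers of olfactory sensory axons and nasal mucosa 4 were higher in bulb and 3 in hippocampus. The targeted gene Rasgrf2 fell by 0.58 in knockout hippocampus (SE 0.077, limma adjusted p = 0.00197), from 9.32, 9.14 and 9.18 in wild type to 8.64, 8.76 and 8.49. In bulb it read 9.52, 9.52 and 9.47 in wild type and 9.33, 9.35 and 9.43 in knockout, a difference of -0.14 (adjusted p = 0.532). Whether this probe set lies in the deleted part of the gene is not known here, and 0 of the 37 genes lie on chromosome 13, which carries Rasgrf2. Knockout hippocampus replicate 6 stood farthest out of the hippocampal arrays on the second principal component, at -35.4. Wild-type bulb replicate 1 read 8.29 for Cyp2g1, an enzyme gene of nasal mucosa, where the other bulb arrays read 5.37 to 5.68.

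**Figure D1:**
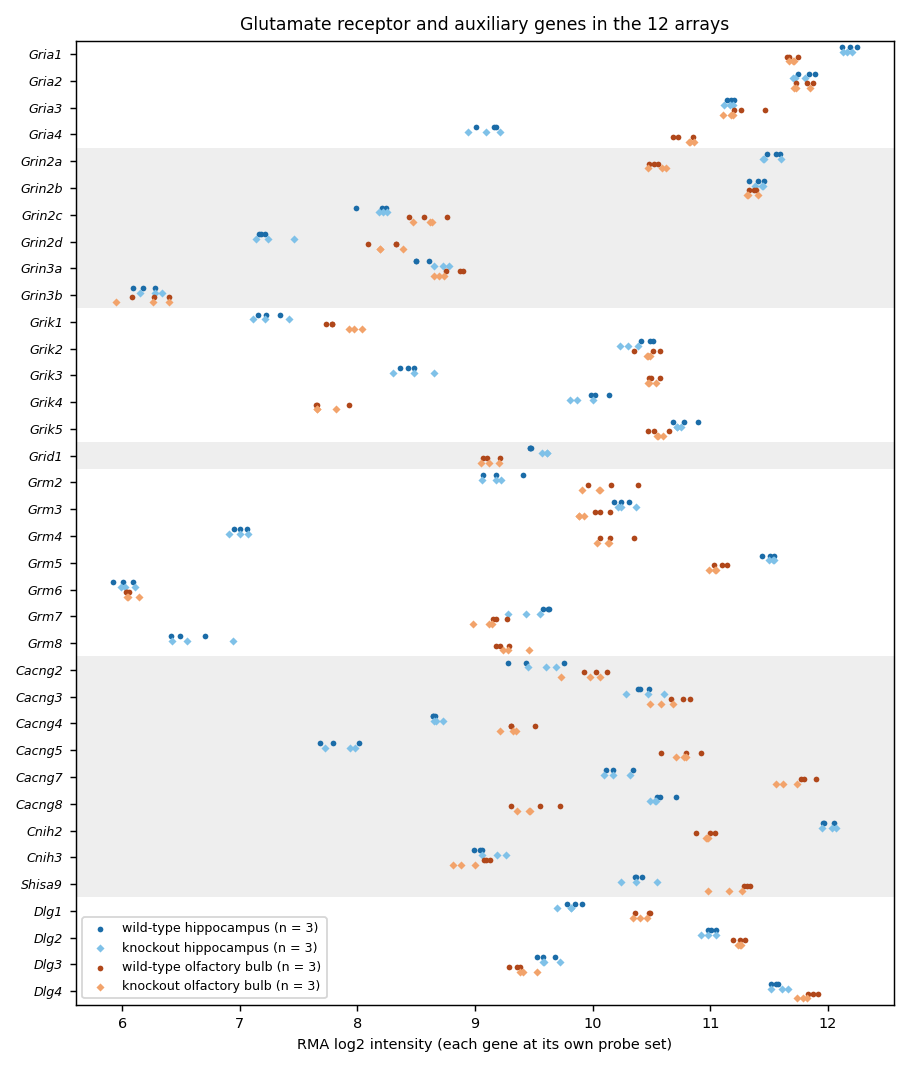
RMA log2 intensity (horizontal axis) of the 36 measured genes in each of the 12 arrays, 1 point per array, circles for wild type and diamonds for knockout, blue for hippocampus and orange for bulb. Shading separates the families. The blue and orange points of Grm4, Grm8, Cacng5, Grik3 and Grik4 stand far apart.

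The first comparison asks how the receptor set of hippocampus differs from that of olfactory bulb. In wild type, 28 of the 36 genes differed between the tissues, 10 higher in hippocampus and 18 higher in bulb (limma, Benjamini-Hochberg adjusted p of 0.05 over all genes). Over all genes 40.9% passed the same test, 17.5% higher in hippocampus and 23.4% higher in bulb. In knockout, 27 of 36 passed, 11 higher in hippocampus and 16 higher in bulb, beside 39.1% of all genes, 19.2% higher in hippocampus and 19.9% higher in bulb. These shares of all genes take in dim genes, while 34 of the 36 have a mean above 6.91, the median over all probe sets. With dim genes left out, 60.4% of the genes kept passed in knockout. Over the other settings the wild-type share of all genes ran from 32.4% to 60.9%. The same direction was called in both genotypes for 25 genes, 9 higher in hippocampus and 16 in bulb, where 30.6% of all genes met that condition. All 25 kept 1 direction in each of the 6 animals. They were called on these same arrays, so this adds no separate support. Differences of more than 2-fold were measured for 11 of the 36 genes in wild type, where 4.79% of all genes went that far, and for 9 in knockout, beside 4.81%. The arrays of the tissues did not overlap for 31 of the 36 genes in wild type and 29 in knockout, beside 50.9% and 48.9% of all genes. The median over the list was -0.185 in wild type beside -0.071 over all genes. Centring each array on its median moved the wild-type tissue differences of all genes by 0.113, which turned the split of calls over all genes from 3480 higher in hippocampus and 4668 higher in bulb to 4911 and 2888. In knockout the split over all genes went from 3838 and 3966 to 5330 and 3151. For the 36 genes the centred split was 11 and 16 in wild type and 12 and 14 in knockout.

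Among AMPA receptor subunits, which form the pore, Gria4 was higher in bulb and Gria1 higher in hippocampus. Gria4 read 10.85, 10.68 and 10.73 in wild-type bulb, 10.82, 10.83 and 10.86 in knockout bulb, and 8.94 to 9.21 in the 6 hippocampal arrays. The wild-type difference was -1.64 (SE 0.080, adjusted p = 3.53e-10), or 3.11-fold, and the knockout difference -1.76. Gria1 read 12.19, 12.25 and 12.12 in wild-type hippocampus and 11.75, 11.65 and 11.67 in wild-type bulb, a difference of 0.50 (SE 0.064, adjusted p = 1.34e-05), and 0.47 in knockout. No array of one tissue overlapped the other tissue for either gene. Gria2, the subunit that keeps edited AMPA receptors from passing calcium, differed by 0.02 in wild type (95% interval -0.13 to 0.17) and -0.02 in knockout. Gria3 differed by -0.14 (interval -0.30 to 0.017) and did not pass (adjusted p = 0.145).

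Within each array, Gria4 minus Gria1 was -0.93 ± 0.035 (SD, n = 3) in wild-type bulb and -3.07 ± 0.155 in wild-type hippocampus, and -0.85 and -3.09 in knockout. Its shift from bulb to hippocampus was below 0 in 6 of 6 animals, from -2.35 to -2.00. Gria1 minus Gria2 shifted up in 6 of 6 animals, by 0.37 to 0.69. Such a difference between probe sets gives no ratio of transcripts, and its shift shows that the paired genes differ unequally between the tissues. Each pair set out here and below holds a gene called between the tissues on these same arrays. The count of animals therefore adds no separate support.

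Among NMDA receptor subunits, which join Grin1 to form the calcium-permeable channel, Grin2a was higher in hippocampus and Grin2c and Grin2d in bulb. Grin2a read 11.48, 11.56 and 11.59 in wild-type and 11.46, 11.60 and 11.45 in knockout hippocampus, and 10.47 to 10.62 in the 6 bulb arrays. Its difference was 1.02 in wild type (SE 0.070, adjusted p = 1.49e-08), or 2.03-fold, and 0.94 in knockout. Grin2b, the subunit that predominates early in development, differed by 0.03 in wild type (interval -0.10 to 0.17) and 0.08 in knockout, with values from 11.31 to 11.46 over all 12 arrays. Grin2a minus Grin2b was 0.14 ± 0.037 in wild-type hippocampus and -0.84 ± 0.040 in wild-type bulb (SD, n = 3), and it shifted up by 0.82 to 1.01 in 6 of 6 animals.

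Grin2d, a subunit of slowly deactivating receptors found in interneurons, read 8.33, 8.33 and 8.09 in wild-type bulb and 7.21, 7.18 and 7.16 in wild-type hippocampus. The wild-type difference was -1.07 (SE 0.093, adjusted p = 2.38e-07) and the knockout difference -0.98. Grin2c differed by -0.44 (adjusted p = 0.00102) in wild type and by -0.36 in knockout. Grin3a, a subunit that lowers calcium permeability, differed by -0.31 in wild type (adjusted p = 0.00213) and by 0.03 in knockout. Grin3b read 5.95 to 6.40 in all arrays, and its mean lay below the array medians in each of the 4 groups.

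Kainate receptor subunits split between the tissues. Grik4, a high-affinity subunit known from CA3 pyramidal neurons, read 10.14, 9.99 and 10.02 in wild-type and 9.81 to 10 in knockout hippocampus. In bulb it read 7.66, 7.93 and 7.65 in wild type and 7.66, 7.82 and 7.66 in knockout. The difference of 2.31 in wild type (SE 0.089, adjusted p = 2.70e-11), or 4.94-fold, was the highest of the list toward hippocampus, and the knockout difference was 2.18.

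Grik3, a low-affinity subunit, went the other way, at 10.48, 10.50 and 10.57 in wild-type bulb against 8.36, 8.43 and 8.48 in wild-type hippocampus. In knockout it read 10.48, 10.47 and 10.54 in bulb and 8.30, 8.48 and 8.65 in hippocampus. The differences were -2.10 in wild type (SE 0.081, adjusted p = 2.77e-11), or 4.28-fold, and -2.02 in knockout. The tissues did not overlap in any array for either subunit. Grik1, a low-affinity subunit known from interneurons, was higher in bulb too, by -0.53 in wild type (adjusted p = 9.44e-05) and -0.74 in knockout as hippocampus minus bulb. Grik2, the most widely made low-affinity subunit, differed by -0.01 in wild type (interval -0.16 to 0.15). Grik5, the other high-affinity subunit, was higher in wild-type hippocampus by 0.24 (adjusted p = 0.0155), a call lost without wild-type hippocampus replicate 2 (0.18) or without wild-type bulb replicate 1 (0.20), and it did not pass in knockout (0.16, adjusted p = 0.0987). Grid1, a delta receptor subunit that binds cerebellins at synapses, read 9.48, 9.47 and 9.47 in wild-type hippocampus and 9.07, 9.21 and 9.10 in wild-type bulb. It was higher in hippocampus by 0.35 (SE 0.065, adjusted p = 0.00050) in wild type and by 0.48 in knockout.

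Grm4 had the widest tissue difference of the 36 genes. It belongs, with Grm8, Grm7 and Grm6, to the group III metabotropic receptors, most of which sit at presynaptic terminals and restrain release. Grm4 read 10.15, 10.35 and 10.06 in wild-type and 10.14, 10.04 and 10.13 in knockout bulb, and 6.91 to 7.07 in the 6 hippocampal arrays. The difference was -3.18 in wild type (SE 0.079, adjusted p = 3.09e-13), or 9.07-fold, and -3.11 in knockout. The hippocampal values of Grm4 lay close to the array medians of that tissue, 6.82 to 6.89, so RMA may have compressed this difference. Grm8 read 9.18, 9.29 and 9.21 in wild-type and 9.28, 9.24 and 9.46 in knockout bulb, and 6.41 to 6.94 in hippocampus. Its difference was -2.69 in both genotypes (wild type SE 0.115, adjusted p = 8.11e-11), or 6.47-fold. The means of Grm8 in hippocampus lay below the array medians, where RMA compresses differences. Grm7, of the same group, was higher in hippocampus instead, with 9.58, 9.62 and 9.63 against 9.15, 9.27 and 9.18 in wild type, a difference of 0.41 (SE 0.078, adjusted p = 0.000548) and of 0.34 in knockout. Grm6, the receptor of retinal ON bipolar cells, read 5.92 to 6.14 over all arrays, below the array medians, and differed by -0.04 in each genotype.

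Grm2, a presynaptic group II receptor, read 10.16, 10.39 and 9.96 in wild-type bulb and 9.41, 9.18 and 9.07 in wild-type hippocampus. Its difference was -0.95 (SE 0.107, adjusted p = 3.55e-06) in wild type and -0.85 in knockout. Grm3, the group II receptor also made by astrocytes, differed by 0.17 in wild type (adjusted p = 0.0663) and by 0.38 in knockout (adjusted p = 0.000381). Within arrays Grm2 minus Grm3 was 0.09 ± 0.174 in wild-type bulb and -1.02 ± 0.205 in wild-type hippocampus (SD, n = 3), and it shifted down in 6 of 6 animals. Grm5, the group I receptor of the list, read 11.44, 11.51 and 11.54 in wild-type hippocampus and 11.03, 11.14 and 11.10 in wild-type bulb, a difference of 0.41 (SE 0.063, adjusted p = 8.26e-05) and of 0.50 in knockout.

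Of 9 auxiliary subunits of AMPA receptors 6 were higher in bulb and 2 in hippocampus in wild type, and 5 and 3 in knockout. Over all genes 23.4% were higher in bulb and 17.5% in hippocampus in wild type, and 19.9% and 19.2% in knockout. The 6 include Cacng3, whose call was lost after centring (-0.22), and Cacng2, whose second probe set did not show the difference. Cacng5, a type II TARP with weak effects on trafficking, read 10.92, 10.79 and 10.58 in wild-type and 10.79, 10.78 and 10.71 in knockout bulb, and 7.68 to 8.01 in the 6 hippocampal arrays. The difference was -2.94 in wild type (SE 0.103, adjusted p = 9.07e-12), or 7.66-fold, and -2.88 in knockout. Cacng4, with 0 protein-coding genes between it and Cacng5 on chromosome 11, was also higher in bulb, by -0.73 in wild type (adjusted p = 7.33e-07) and -0.61 in knockout.

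Cacng7 and Cacng8, the neighbours whose promoters are printed above, differed in opposite directions. Cacng7, the other type II TARP, read 11.90, 11.77 and 11.80 in wild-type bulb and 10.34, 10.17 and 10.11 in wild-type hippocampus, a difference of -1.62 (SE 0.082, adjusted p = 5.15e-10), or 3.06-fold, and of -1.44 in knockout. Cacng8, the TARP known for its hippocampal expression, read 10.55, 10.71 and 10.57 in wild-type hippocampus and 9.55, 9.72 and 9.31 in wild-type bulb. It was higher in hippocampus by 1.08 (SE 0.091, adjusted p = 1.49e-07) in wild type, or 2.11-fold, and by 1.09 in knockout. No hippocampal array of Cacng7 reached a bulb array, and no bulb array of Cacng8 reached a hippocampal one.

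Cacng2, stargazin, was higher in bulb in wild type (-0.54, adjusted p = 0.00158) and in knockout (-0.34, adjusted p = 0.0301). Cacng2 is the only member with more than 1 probe set, and its second probe set read -0.08 in wild type (adjusted p = 0.629 over every probe set) and 0.03 in knockout, so its probe sets disagree on the tissue difference. The knockout call was lost in 7 of 22 other settings, among them without knockout hippocampus replicate 4 (-0.35) or 5 (-0.27) and without knockout bulb replicate 4 (-0.27) or 6 (-0.31). Cacng3 was higher in bulb in wild type (-0.33, adjusted p = 0.00571) and did not pass in knockout (-0.13). Cnih2, a cornichon that slows AMPA receptor kinetics, read 12.05, 11.96 and 11.97 in wild-type hippocampus and 11.04, 11.00 and 10.88 in wild-type bulb. It was higher in hippocampus by 1.02 (SE 0.067, adjusted p = 9.49e-09) and by 1.05 in knockout. Cnih3, its close relative, differed by -0.07 in wild type (interval -0.22 to 0.083), and Cnih2 minus Cnih3 shifted up toward hippocampus by 0.67 to 1.13 in 6 of 6 animals. Shisa9, whose product promotes AMPA receptor desensitization, was higher in bulb, by -0.93 (adjusted p = 4.55e-07) and -0.75 in knockout.

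The scaffolds differed by less. Dlg1 was higher in bulb (-0.60, adjusted p = 5.14e-06), as were Dlg4, the scaffold PSD-95 (-0.32, adjusted p = 0.000929), and Dlg2, the scaffold PSD-93 (-0.23, adjusted p = 0.00855), while Dlg3 was higher in hippocampus (0.26, adjusted p = 0.0091). In knockout the differences were -0.62, -0.19, -0.27 and 0.19 in that order. Dlg3 and Dlg4 did not pass in knockout with the animal as a fixed block (limma adjusted p = 0.0565 and 0.0615), and Dlg3 did not with a random block (adjusted p = 0.0577). Dlg2 minus Dlg4 shifted toward hippocampus by 0.02 to 0.16 in the 3 wild-type animals and by -0.12 to -0.02 in the 3 knockout animals. By limma the difference of knockout effects between tissues did not pass for Dlg2 (adjusted p = 0.898) or Dlg4 (adjusted p = 0.612).

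**Figure D2:**
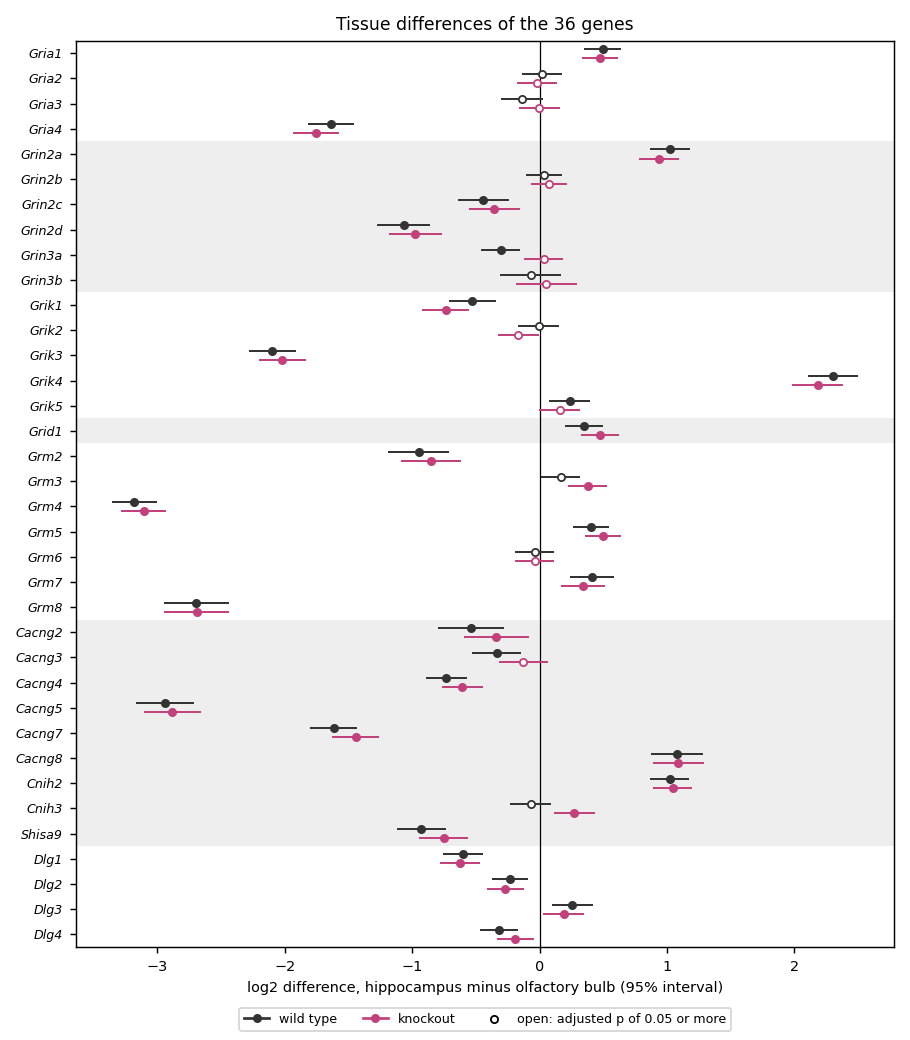
Log2 difference of hippocampus minus olfactory bulb (horizontal axis) for each of the 36 genes, with limma's 95% interval, in wild type (black) and knockout (pink). Filled points passed an adjusted p of 0.05. Differences run from -3.18 (Grm4) to 2.31 (Grik4) in wild type.

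**Figure D3:**
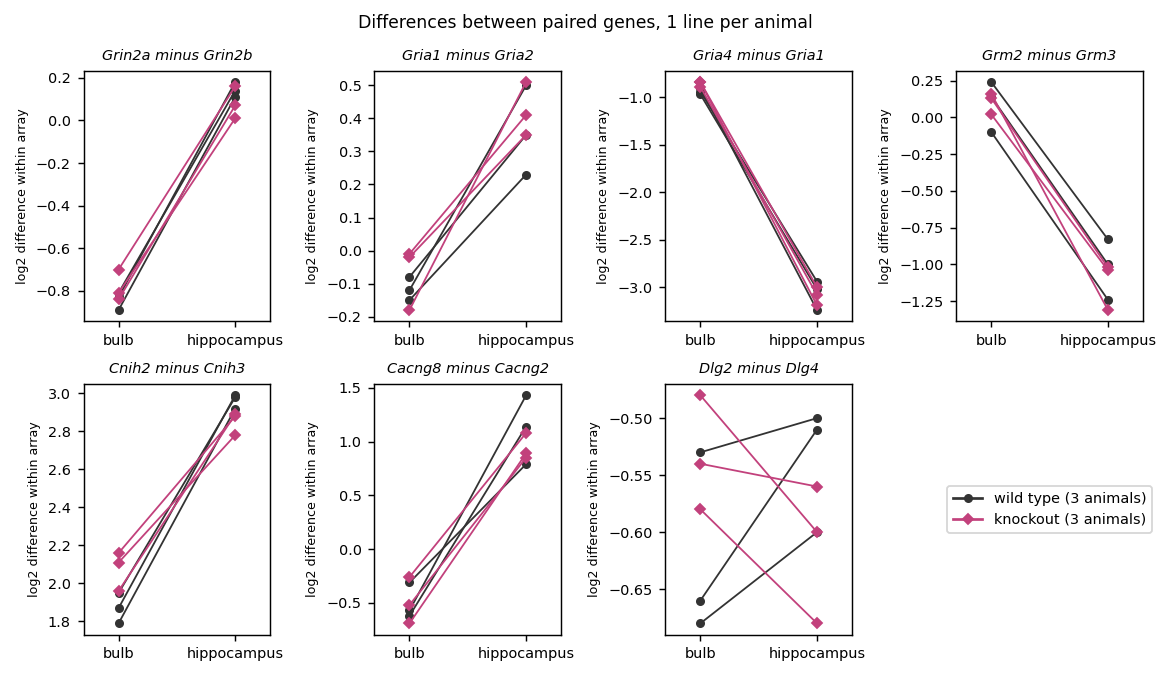
Difference of log2 values between the genes of 7 pairs within an array (vertical axis) in bulb and hippocampus, with 1 line per animal, black for wild type and pink for knockout. The lines run one way in 6 of 6 animals for 6 pairs. Each of these pairs holds a gene called between the tissues on these same arrays, so this adds no separate support. For Dlg2 minus Dlg4 the lines run up in the 3 wild-type and down in the 3 knockout animals.

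Neuron classes of the tissues moved with these differences. The mean log2 level over the 12 bulb interneuron markers was 10.44 to 10.65 in the bulb arrays and 7.98 to 8.05 in the hippocampal arrays. The mean over the 8 CA pyramidal markers was 8.39 to 8.71 in hippocampus and 7.51 to 7.71 in bulb, and the mean over 9 dentate granule markers 8.70 to 9.12 against 7.57 to 7.82. The part of these cells in the receptor differences was not tested.

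Genes around the receptors were taken from 4 lists of the same pathway, and their counts stand beside the 40.9% of all genes that passed in wild type. Of 21 measured auxiliary and trafficking partners outside the 36 genes, 10 were higher in wild-type hippocampus and 7 in bulb. The largest were C1ql3 (2.69) and Nptx1 (2.34), secreted synaptic organizers, toward hippocampus, and Cbln1 (-2.49), the cerebellin that binds delta receptors, and Grip2 (-2.27), an AMPA receptor scaffold, toward bulb. Of 14 other postsynaptic scaffolds 5 were higher in hippocampus, led by Shank3 (1.21) and Lin7b (1.19), and 6 in bulb, led by Lin7a (-1.25) and Cask (-1.16). Of 10 genes of glutamate transport and metabolism 3 were higher in hippocampus, among them Slc17a7 (0.73), the vesicular transporter VGLUT1, and Slc1a2 (0.49), the astrocyte transporter. In bulb 2 were higher, Slc17a6 (-2.04), the transporter VGLUT2, and Slc1a3 (-0.53). Of 14 measured genes from calmodulin to ERK 5 were higher in hippocampus, led by Calm3 (1.14) and Camk2a (0.65), and 2 in bulb, Rasgrf2 (-0.29) and Creb1 (-0.26). The 5 of 10 and 7 of 14 called in the last 2 lists are shares near that of all genes.

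The second comparison asks whether loss of RasGRF2 changed these genes. In hippocampus 0 of the 36 genes passed limma at an adjusted p of 0.05, where 0.256% of all genes did, and the smallest adjusted p was 0.489. In bulb 0 of 36 passed beside 0.411% of all genes, with a smallest adjusted p of 0.332. In hippocampus 3 of the 36 genes had an unadjusted p under 0.05, as had 8.91% of all genes, and in bulb 5 had one, as had 11.3% of all genes. With the tissues of each animal averaged, 3 animals against 3, 0 passed beside 0.577% of all genes, and 1 had an unadjusted p under 0.05 (9.93% of all genes). The count stayed at 0 in each of these comparisons under every alternative that was run.

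The 95% intervals of the 36 genes lay between -0.36 and 0.35 in hippocampus and between -0.39 and 0.39 in bulb, and their outermost bounds stand for 1.28-fold and 1.31-fold. With tissues averaged the bounds were -0.30 and 0.29, at most 1.23-fold. Differences themselves ran from -0.19 to 0.19 in hippocampus and from -0.20 to 0.22 in bulb. The SD between arrays of a group had a median of 0.0751 over the 36 genes, from 0.0439 to 0.168 for Cacng2, beside 0.106 over all genes. A missed threshold does not show that a gene is unchanged, and the interval gives the range these arrays leave.

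For the genes of the NMDA receptor, which RasGRF2 is known to act downstream of, the hippocampal differences were -0.04 for Grin2a (interval -0.19 to 0.11) and 0.02 for Grin2b (interval -0.11 to 0.16). In bulb they were 0.04 and -0.02. Grin2c and Grin2d differed by 0.07 and 0.10 in hippocampus and by -0.02 and 0.00 in bulb. The AMPA subunits Gria1 to Gria4 differed by -0.02, -0.08, -0.01 and -0.04 in hippocampus, and by 0.00, -0.04, -0.15 and 0.08 in bulb. None of these passed.

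Grin3a had the smallest hippocampal p of the 36. It read 8.50, 8.50 and 8.61 in wild-type and 8.73, 8.78 and 8.65 in knockout hippocampus, a difference of 0.19 (SE 0.069, unadjusted p = 0.0158, adjusted p = 0.489). The knockout arrays all lay above the wild-type arrays, which adds no separate support, since Grin3a was picked for its small p. In bulb it read 8.87, 8.90 and 8.75 in wild type and 8.74, 8.69 and 8.65 in knockout, a difference of -0.15 (adjusted p = 0.438), with all knockout arrays below the wild-type arrays.

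Grm7 read 9.58, 9.62 and 9.63 in wild-type and 9.43, 9.55 and 9.28 in knockout hippocampus, a difference of -0.19 (SE 0.078, adjusted p = 0.525). Knockout replicate 6, the hippocampal array farthest out, read lowest. With each array left out in turn Grm7 differed by -0.26 to -0.12 in hippocampus. In bulb it read 9.15, 9.27 and 9.18 against 9.12, 8.98 and 9.14, a difference of -0.12, so the knockout arrays lay lower in both tissues. With the tissues averaged per animal Grm7 differed by -0.16 (SE 0.049, unadjusted p = 0.00819, adjusted p = 0.283), the smallest p of the list in that comparison. Next came Grik1 at 0.11 (adjusted p = 0.557) and Cacng7 at -0.10 (adjusted p = 0.594). Grik2 read 10.41, 10.51 and 10.49 in wild-type and 10.39, 10.30 and 10.23 in knockout hippocampus, a difference of -0.16 (adjusted p = 0.544) that was 0.00 in bulb. Knockout replicate 6 was again the lowest, and with each array left out in turn the hippocampal difference ran from -0.21 to -0.13.

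In bulb Cnih3 had the smallest p. It read 9.09, 9.13 and 9.08 in wild type and 9.0, 8.88 and 8.81 in knockout, a difference of -0.20 (SE 0.072, unadjusted p = 0.0129, adjusted p = 0.332), while in hippocampus it read 9.06, 8.99 and 9.04 against 9.06, 9.26 and 9.19 (0.14, adjusted p = 0.593). Grik1 read 7.78, 7.73 and 7.78 in wild-type and 7.93, 7.97 and 8.04 in knockout bulb, a difference of 0.22 (SE 0.083, adjusted p = 0.355). Grm3 read 10.02, 10.15 and 10.06 against 9.93, 9.88 and 9.88 in bulb, a difference of -0.18 (SE 0.069, adjusted p = 0.367). Cacng7 read 11.90, 11.77 and 11.80 against 11.74, 11.56 and 11.62 in bulb, a difference of -0.19 (SE 0.082, unadjusted p = 0.040, adjusted p = 0.423), and it differed by -0.01 in hippocampus. The bulb groups of these 4 genes did not overlap, beside 17.1% of all genes. The genes were picked for small p on these same arrays, so this adds no separate support.

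**Figure D4:**
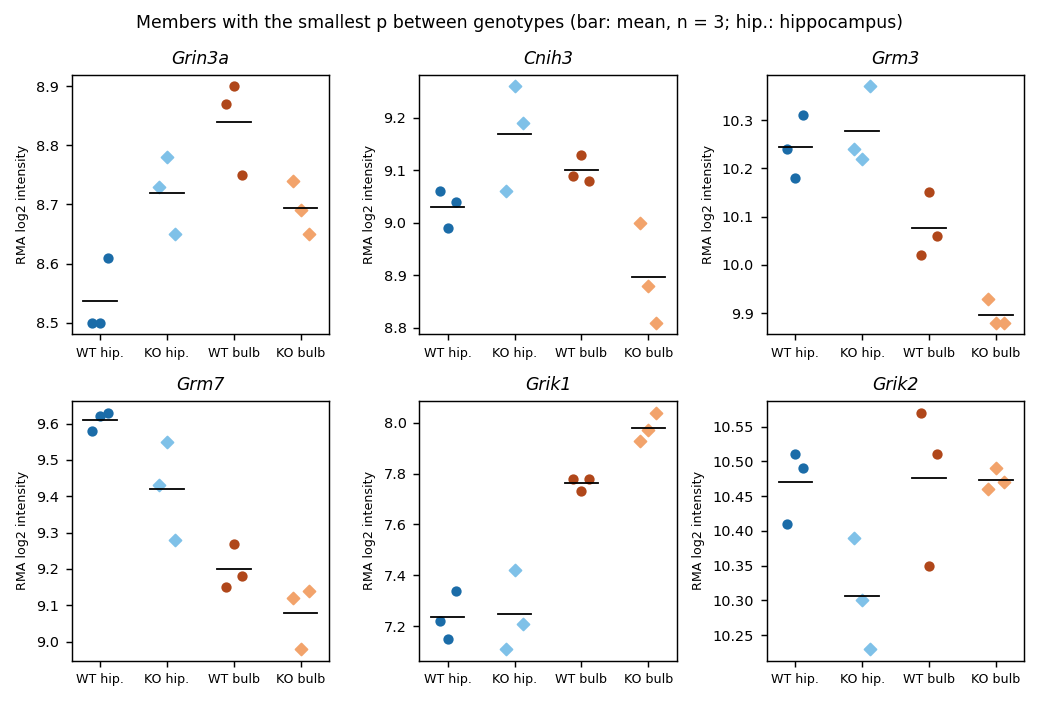
RMA log2 intensity (vertical axis) of the 6 genes with the smallest p between genotypes in hippocampus or bulb, 1 point per array and a bar at the mean of 3 arrays. The means of Grin3a and Cnih3 lie higher in knockout hippocampus and lower in knockout bulb, and none of the 6 passed the adjusted test.

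In hippocampus the knockout arrays lay wholly outside the wild-type arrays for 6 of the 36 genes, 3 of them lower, beside 13.1% of all genes. In bulb they did so for 10 of the 36, 8 of them lower, beside 17.1% of all genes. In bulb 26 of the 36 differences were below 0, with a median of -0.039 beside -0.016 over all genes, of which 44.5% lay above 0. With arrays centred on their medians, 22 of the 36 bulb differences were below 0. In hippocampus 21 of 36 were above 0 as deposited, beside 63% of all genes, and 12 after centring, which moved the median of all genes by -0.035.

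**Figure D5:**
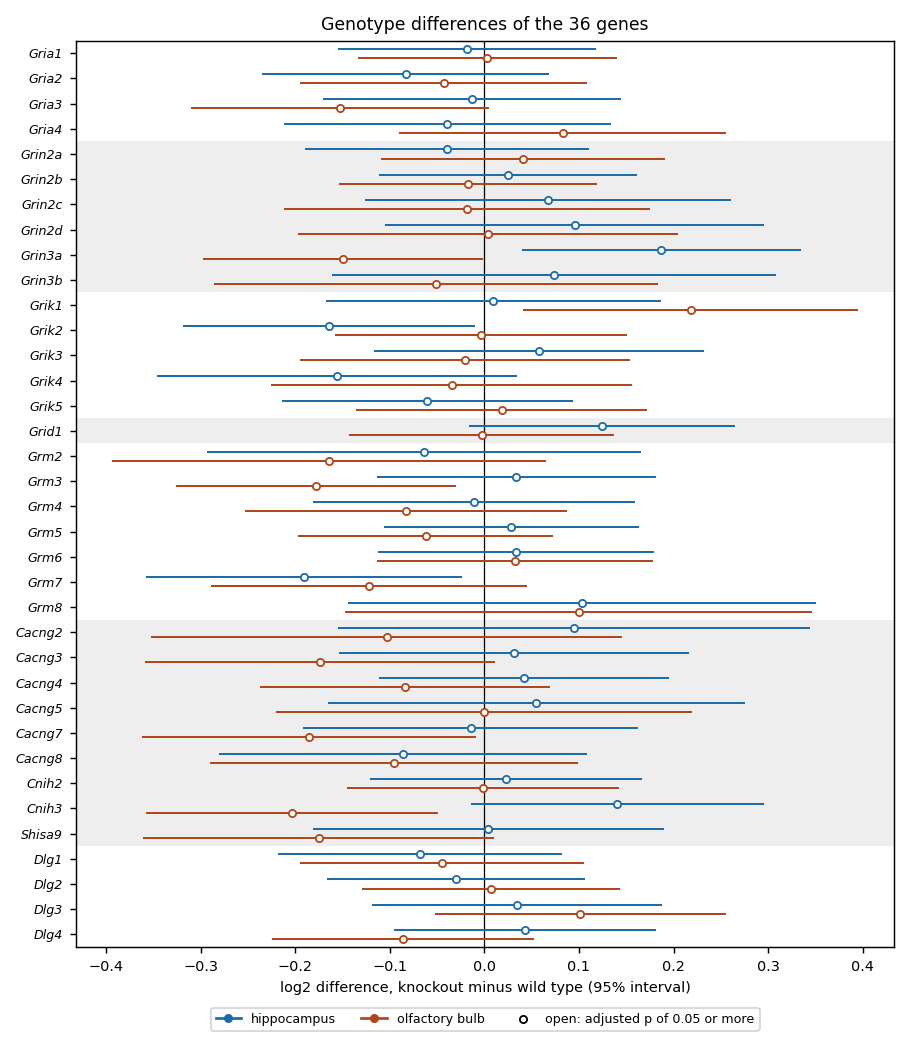
Log2 difference of knockout minus wild type (horizontal axis) for each of the 36 genes with limma's 95% interval, in hippocampus (blue) and olfactory bulb (orange). All points are open, since 0 of 36 passed in either tissue, and all intervals lie between -0.39 and 0.39.

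The mean log2 level of 13 cell type marker lists was compared between the genotypes. In hippocampus the arrays of the genotypes stood wholly apart for 3 of 13 lists, beside 13.1% of all genes taken singly. Each of the 3 was higher in knockout. There 63% of all genes lay above 0, and centring, which was not applied to the marker means, moved the median of all genes by -0.035. The hippocampal means of the mitral and tufted markers lay below the array medians of that tissue, 6.82 to 6.89. The wild-type ependymal means also lay below the medians of their own arrays, and the knockout ones a little above theirs. The mean over 7 mitral and tufted cell markers was 6.44 to 6.55 in wild type and 6.62 to 6.65 in knockout, that over 12 bulb interneuron markers 7.98 to 8 and 8.01 to 8.05, and that over 5 ependymal markers 6.60 to 6.83 and 6.91 to 7.10. In bulb 2 of 13 lists stood apart, beside 17.1% of all genes taken singly. The mitral and tufted markers were at 8.55 to 8.57 in wild type and 8.64 to 8.67 in knockout, and 7 oligodendrocyte precursor markers at 7.82 to 7.86 and 7.66 to 7.77. With the tissues averaged, 7 of 7 mitral and tufted markers were above 0, with a median of 0.15, beside 55.4% of all genes above 0. In hippocampus alone and in bulb alone 5 of 7 were above 0. None of the 7 passed the threshold in these comparisons of genotypes. The hippocampal ranges overlapped for 7 oligodendrocyte markers (8.91 to 9.02 in wild type, 8.97 to 9.38 in knockout) and 9 dentate granule markers (8.95 to 9.12 and 8.70 to 8.98). Of single markers, 1 of 8 for CA pyramidal neurons passed as lower in knockout hippocampus, beside 0.256% of all genes called there. In that list 6 of 8 markers were above 0, with a median of 0.12. Of 12 bulb interneuron markers 1 passed as higher in knockout bulb, beside 0.411% of all genes, and 8 of 12 were above 0. The part of these cell types in the differences of Grin3a, Grm3, Grm7 and Cnih3 was not tested.

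The pathway lists around the receptors gave 1 gene past the threshold between genotypes, Rasgrf2 itself in hippocampus. It belongs to the list from calmodulin to ERK, of which 14 of 21 genes were measured. Of these 14, 2 were above 0 in hippocampus, beside 63% of all genes, and 5 in bulb, beside 44.5%. With tissues averaged 1 of 14 was above 0, beside 55.4% of all genes. These directions were not tested as a set. Of the 21 auxiliary and trafficking partners, 14 scaffolds and 10 genes of glutamate transport and metabolism, 0 passed in hippocampus and 0 in bulb. Over all genes 0.256% and 0.411% passed. In other settings the auxiliary and trafficking list reached at most 2 calls in hippocampus and 1 in bulb, and the scaffold and transport lists stayed at 0. Their medians lay between -0.07 and 0.02 in the 2 tissues.

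The third comparison asks whether the knockout effect differed between tissues. By limma's test of the difference of effects 0 of 36 genes passed, beside 0.015% of all genes, and 3 had an unadjusted p under 0.05, beside 10.7% of all genes. Cnih3 had a difference of effects of 0.34 (SE 0.102, unadjusted p = 0.00423, adjusted p = 0.375), Grin3a of 0.34 (SE 0.097, unadjusted p = 0.00353, adjusted p = 0.371) and Grm3 of 0.21 (SE 0.097, adjusted p = 0.462). Grin3a, Grik5 and Cacng3 passed the tissue comparison in wild type and not in knockout, and Grm3 and Cnih3 in knockout and not in wild type. Since the difference of effects did not pass for any of these 5 (adjusted p of Grik5 0.789 and of Cacng3 0.551), the tissue differences are not shown to depend on genotype.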

How the data were processed

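Total RNA of 12 samples was extracted with Trizol and given a biotin label before hybridisation, per the labels' protocols. The authors deposited log2 values, 1 for each probe set in each sample, which the submitters' processing notes tie to RMA and oligo. Versions and the set of arrays normalized together are not stated in these sources. RMA makes array distributions alike and shrinks differences of dim probe sets. The number of arrays limits the precision, as they have no read depth.

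Of 35556 probe sets, 21789 carry 1 gene symbol in the platform's annotation, 1621 several, and 12146 are not listed. For 999 genes with several single-symbol probe sets the one of highest mean was kept, giving 19938 genes. All 36 measured members matched RefSeq (GRCm38.p6) by Entrez identifier. The members and the lists of pathway genes and markers were chosen with earlier results of these data known. All members are named. Those described in full are the 8 largest tissue differences in each direction in wild type and the 3 smallest p of each genotype comparison.

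The model held 4 group means over 12 arrays and was fitted with limma 3.58.1 (R 4.3.3, lmFit and eBayes at default settings) to the deposited log2 values, with Benjamini-Hochberg adjustment over all genes at 0.05 and no filter on dim genes. For animal means the tissues were joined by the animal code. The pipeline was tested on simulated data. Replicates are separate animals, and the SD of the difference between a pair of them, over probe sets, was 0.212 to 0.297, so none was a copy of another. The animal code in the labels pairs the tissues, and for a pair of wild-type mice it differs from the number in the title. Deviations from the group means correlated between the tissues of an animal, joined by the code, with r of -0.255 to 0.116 over genes. Joined by the title's number, r ran from -0.208 to 0.252. Plots were made in Python 3.11.15 with matplotlib 3.10.9.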

Additional observations from a re-analysis of the deposited data

Results flagged for a closer look

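The difference between the scaffold genes Dlg2 and Dlg4 within an array moved in opposite directions in the genotypes. From olfactory bulb to hippocampus it shifted by 0.02 to 0.16 in the 3 wild-type animals and by -0.12 to -0.02 in the 3 knockout animals, and the mean shift was -0.17 in knockout minus wild type. This difference was not tested as a pair, and it was looked at in 7 pairs of genes. By limma's test of the difference of knockout effects neither gene passed, at -0.04 for Dlg2 (adjusted p = 0.898) and 0.13 for Dlg4 (adjusted p = 0.612). Between arrays of a group the pair difference had an SD of 0.0509 to 0.0847.\n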

How the results depend on the processing

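Other settings were only the arrays of a comparison, trend and robust moderation, array weights, centring of arrays, every probe set, the mean over probe sets, dim genes left out, the animal as a replicate block, and each array or animal left out in turn. The number of members past the threshold stayed at 0 in every genotype comparison, and ran from 27 to 29 in wild type and from 24 to 29 in knockout for the tissue comparison. Of the 28 and 27 members called there, 25 and 24 passed under every setting. In wild type Cacng3 (-0.22) and Dlg2 (-0.12) were lost after centring, and Grm3 passed in 6 of 22 settings. In knockout Cacng2 was lost in 7, Dlg3 in 13 and Dlg4 in 6 of 22. Each of these 3 was lost without knockout bulb replicate 4 (-0.27, 0.16 and -0.17). Dlg3 was also lost without knockout hippocampus replicate 4 or 5, knockout bulb replicate 6, and replicate 1 or 3 of either wild-type tissue (0.15 to 0.21), and Dlg4 without knockout hippocampus replicate 6 (-0.15) or knockout bulb replicate 5 (-0.18). With a replicate block by animal code as a fixed effect, Dlg3 (0.19) and Dlg4 (-0.19) were the calls lost, and with a random block by animal code or by the title's number Dlg3 alone was lost (0.19); neither block changed another call among the members. The share of all genes past the threshold moved more, from 0.14% to 1.69% in hippocampus (0.256% in the report), from 0.176% to 0.875% in bulb (0.411%), from 0% to 0.0602% for the difference of effects (0.015%) and from 0.298% to 1.18% with tissues averaged (0.577%). In knockout 60.4% of genes differed between tissues with dim genes left out (39.1%). In wild type that share ran from 32.4% to 60.9% over the settings (40.9%). The number of arrays, 3 per group, sets the width of the intervals given.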
